A study of Mus musculus with 89 samples.

Results

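The respiratory chain of the inner mitochondrial membrane was followed through the genes of the nuclear genome that encode its subunits, in clumps and single cells of the mouse jejunum. The members were the genes whose symbols begin with Ndufa, Ndufb, Ndufc, Ndufs, Ndufv, Uqcr, Cox4 to Cox8 or Atp5, together with Sdha, Sdhb, Sdhc and Sdhd, and genes marked as pseudogenes were left out. They numbered 87 of 29100 genes in either table of counts, with 86 of 27538 in the clump table, 86 of 23379 in the cell table and 85 in both. By the complex they belong to, 35 were of complex I, 4 of complex II, 8 of complex III, 16 of complex IV and 15 of complex V. No gene whose symbol begins with Cox4 was in either table of counts, so the values of complex IV leave that subunit out. The 9 others, Ndufaf1 to Ndufaf7, Atp5s and Atp5sl, share only the name, since they encode assembly factors and related proteins and not subunits. The mice were C57BL/6 males fed regular chow, 3 months old by the labels except on 3 plates of 1 single-cell mouse (4 months), with no genotype or treatment groups. Epithelium was released with EDTA, and clumps were sorted by DNA content into pairs (4n, mice 1 to 5) and larger clumps (above 4n, mice 1, 4 and 5), or single cells were sorted, some plates through gates named for Epcam, CD24, CD45 or CD54 (mice 1 to 4, numbered apart from the clump mice). Each well was sequenced by MARS-seq, a plate protocol in which a unique molecular identifier (UMI) counts each captured mRNA once near its 3′ end, so that levels could be compared between genes with no correction for length. Clumps hold several neighbouring cells, mostly enterocytes, and were placed in crypt, mid-villus or villus tip by 70 landmark genes that include no member.

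Complexes I and II pass electrons from NADH and succinate to ubiquinone, complex III passes them to cytochrome c and complex IV to oxygen, and complex V (ATP synthase) makes ATP from the proton gradient that complexes I, III and IV build. All complexes except II combine subunits of both genomes, the few made inside the mitochondrion and the many made from nuclear genes. Enterocytes are born in the crypt, move up the villus while they absorb nutrients, and are shed from its tip.

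Some subunits have alternative forms, and the members called higher along the axis were such forms. Promoters from RefSeq (250 bases before to 50 after the start, GRCm38.p6, all on the minus strand, written 5′ to 3′) are shown for the 3 genes of ATP synthase subunit c, which encode the same mature protein, and for both forms of the complex IV subunit 6B. Capitals mark matches to the motif of NRF1, a regulator of nuclear genes for mitochondria, searched as GCGCANGCGC on both strands. Positions are chr11:96075582-96075881 for Atp5g1, chr15:102670998-102671297 for Atp5g2, chr2:73911277-73911576 for Atp5g3, chr7:30626065-30626364 for Cox6b1 and chr7:4753045-4753344 for Cox6b2.
Atp5g1: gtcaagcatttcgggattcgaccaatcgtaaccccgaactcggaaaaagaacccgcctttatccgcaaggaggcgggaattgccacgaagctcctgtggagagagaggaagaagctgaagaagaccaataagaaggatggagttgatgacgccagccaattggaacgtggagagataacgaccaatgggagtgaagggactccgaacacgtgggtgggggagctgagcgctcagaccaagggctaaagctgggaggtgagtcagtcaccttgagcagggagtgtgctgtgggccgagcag
Atp5g2: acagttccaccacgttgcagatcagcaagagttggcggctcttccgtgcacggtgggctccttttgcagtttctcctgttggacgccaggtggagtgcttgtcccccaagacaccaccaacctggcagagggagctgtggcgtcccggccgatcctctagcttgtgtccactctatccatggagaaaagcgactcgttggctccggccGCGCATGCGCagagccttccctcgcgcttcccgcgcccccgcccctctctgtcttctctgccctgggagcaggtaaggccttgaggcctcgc
Atp5g3: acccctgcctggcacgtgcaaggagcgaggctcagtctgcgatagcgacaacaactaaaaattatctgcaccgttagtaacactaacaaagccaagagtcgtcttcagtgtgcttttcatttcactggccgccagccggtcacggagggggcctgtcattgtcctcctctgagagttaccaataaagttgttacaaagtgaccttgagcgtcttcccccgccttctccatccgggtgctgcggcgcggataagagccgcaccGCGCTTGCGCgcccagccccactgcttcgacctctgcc
Cox6b1: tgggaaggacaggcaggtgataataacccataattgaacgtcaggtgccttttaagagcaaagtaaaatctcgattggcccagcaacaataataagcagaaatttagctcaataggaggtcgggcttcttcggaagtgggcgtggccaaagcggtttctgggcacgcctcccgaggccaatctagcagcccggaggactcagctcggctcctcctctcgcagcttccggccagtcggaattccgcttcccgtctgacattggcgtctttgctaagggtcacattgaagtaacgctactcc
Cox6b2: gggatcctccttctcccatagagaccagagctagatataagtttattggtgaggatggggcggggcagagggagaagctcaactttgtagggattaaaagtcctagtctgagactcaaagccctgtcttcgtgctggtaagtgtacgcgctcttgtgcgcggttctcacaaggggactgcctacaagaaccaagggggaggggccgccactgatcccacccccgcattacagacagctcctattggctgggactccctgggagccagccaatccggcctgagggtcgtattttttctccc
The NRF1 motif was found in the windows of Atp5g2 and Atp5g3 and in none of the other 3. Of the 74 members with a promoter in the table, 19 (25.7%) held it, against 1402 of 27025 genes (5.19%). The YY1 motif AAGATGGC was in 11 members (14.9%) and in 3.19% of all genes, and the ETS motif CCGGAAGT in 5 members (6.76%) and in 4.31% of all genes. A match describes the letters of the window and does not show binding.

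The clump table held 38454111 UMIs in 17162 wells and the table of cells had 39137313 UMIs in 16850 wells. After filters, 5883 clumps had a zone (3209 crypt, 1877 mid-villus, 797 villus tip), and UMIs were summed by mouse and zone, since the mouse is the replicate. A sum had 345692 to 18832512 UMIs in the crypt and only 76447 to 749337 at the tip, where the smallest came from mouse 5 (67 clumps) and mouse 4 (37 clumps). Summed markers followed the labels of tissue and zone: 18 enterocyte markers summed to 4071 to 12821 CPM (counts per 1000000 UMIs) in the crypt and to 54940 to 93653 at the tip. Other cell types also moved with the zone. The 12 measured Paneth markers summed to a median of 13651 CPM in the crypt and 1006 at the tip, 16 stem and dividing markers to 823 and 84.7, 16 goblet markers to 3391 and 18629, and 18 immune markers to 621 and 824. Counts without clumps of secretory cells are among the alternatives given at the end. Apart from that, the part of these cell types in the zone results below was not tested. In such sums, fewer cells of a type and less RNA per cell cannot be told apart.

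The members' share of all UMIs was lower at the villus tip than in the crypt in each of the 5 mice. In the crypt the members took 3.32%, 3.53%, 3.71%, 2.94% and 2.32% of UMIs in mice 1 to 5. At mid-villus they took 3.06%, 3.50%, 3.33%, 3.15% and 1.70%, and at the tip 1.13%, 1.30%, 1.59%, 1.78% and 0.828%. Every tip value lay below every crypt value, while crypt and mid-villus overlapped and mouse 5 was the lowest in each zone. Mouse 5 also had the highest share of mitochondrially encoded UMIs in each zone (18.6%, 21.3% and 20.8%, against at most 10.7% in the others), and the relation of these shares was not tested. As means, the share was 3.17% ± 0.553 in the crypt, 2.95% ± 0.716 at mid-villus and 1.32% ± 0.374 at the tip (SD, n = 5), and the ratio of tip to crypt within a mouse was 0.420 ± 0.109, from 0.341 to 0.605.

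All 5 complexes took a smaller share at the tip. The tip to crypt ratio of the share was 0.406 ± 0.0867 for complex I, 0.495 ± 0.115 for complex II, 0.366 ± 0.131 for complex III, 0.420 ± 0.135 for complex IV and 0.442 ± 0.104 for complex V (SD, n = 5), with overlapping ranges over the mice. Each of the 5 mice was below 1 in every complex. In the crypt, complex V made up 33.5% ± 0.529 of the members' UMIs, complex IV 25.9% ± 1.59, complex I 23.6% ± 1.19, complex III 11.9% ± 0.695 and complex II 4.51% ± 0.548. At the tip these were 35.5% ± 1.01, 25.5% ± 1.97, 23.0% ± 0.901, 10.2% ± 1.44 and 5.43% ± 1.41. The part of complex V was 32.9% to 34.3% in the crypt and 34.7% to 37.2% at the tip, with no overlap, while the ranges of the other complexes overlapped between the zones.

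**Figure D1:**
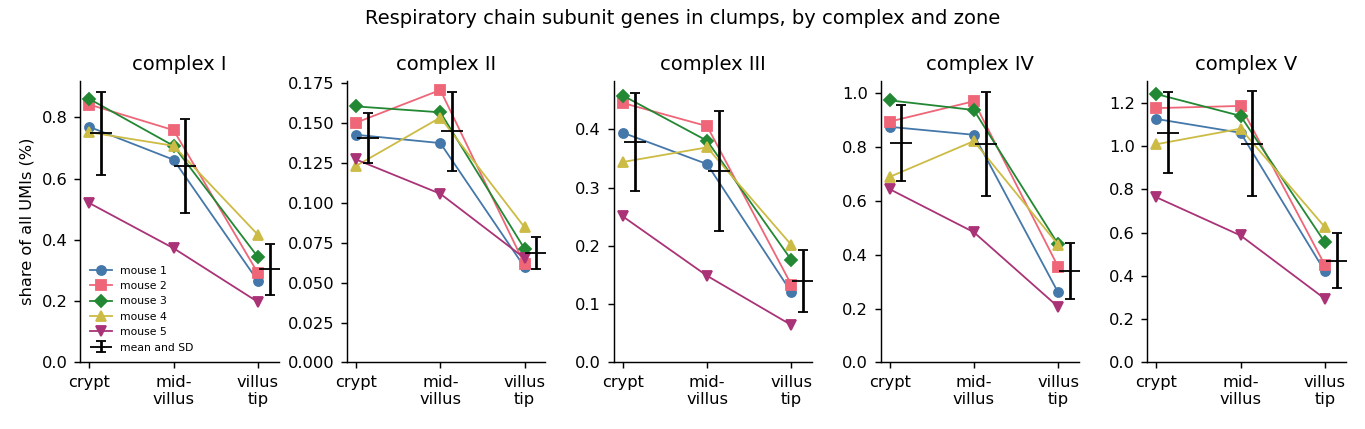
Share of all UMIs (percent, y axes from 0 with a scale of their own per panel) taken by the genes of complexes I to V in crypt, mid-villus and villus tip clumps, 1 line per mouse, with the mean and SD over 5 mice in black. In each complex the tip values of all mice lie below their crypt values, and the mean share of complex I goes from 0.749% to 0.304%.

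Gene by gene, 80 of the 86 members in the clump table had enough UMIs to be tested between villus tip and crypt, and 55 were lower and 1 higher at an adjusted p under 0.05 (edgeR's quasi-likelihood test on UMI counts, Benjamini-Hochberg adjustment over 6940 genes). Of all genes tested, 30.1% were lower and 24.6% higher. The members' median log2 change was −1.10, against −0.0782 over all genes tested, and 76 of the 80 were below 0. Scaled by total UMIs in place of TMM, edgeR's trimmed mean of M values, 69 members were lower and 1 higher with a median of −1.44, and all genes split into 2581 lower and 1122 higher in place of 2087 and 1706 with a median of −0.474. Relative to the median of all genes the members stood at −1.02 with TMM and −0.964 with total UMIs, values that the scaling leaves nearly alike by construction. The 6 untested members (Atp5s, Ndufaf1, Ndufaf6, Ndufaf7, Cox6a2 and Cox7b2) had too few UMIs.

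Among the subunits of complex I, 26 of 35 were lower at the tip and none higher, with a median log2 change of −1.12. This count and those of the other complexes below are to be read against the 30.1% lower and 24.6% higher of all genes tested. Ndufc2, a small membrane arm subunit (chr7:97400003-97407802, plus strand), held 193, 211, 219.6, 197 and 168 CPM in the crypt of mice 1 to 5. At the tip it held 14.1, 45.1, 38.7, 37.7 and 65.4 CPM, with no overlap between the groups. Its log2 change was −1.99 (SE 0.30, adjusted p = 1.78e-05), the largest fall of the complex. Ndufs3, an iron-sulfur protein fraction subunit of the matrix arm, averaged 108 CPM in the crypt and 20.7 at the tip and fell by 1.89 (SE 0.42, adjusted p = 7.33e-04). Ndufb5 fell by 1.66 on the log2 scale, from 282 to 68.9 CPM (adjusted p = 4.46e-05). Ndufa6, the complex I gene with the most UMIs, went from 458 ± 94.7 to 242 ± 82.4 CPM (SD, n = 5), a log2 change of −0.58 that did not pass (adjusted p = 0.0539) but did with a block for the mouse (adjusted p = 0.0195). Reads could be shared with genes that overlap Ndufb5 (Mrpl47), Ndufs3 (Kbtbd4) and Ndufc2 (Gm16053), the first 2 of them on the opposite strand. The authors counted reads by strand per the study's methods, which separates opposite strands but not Gm16053.

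Complex II, whose 4 subunits are all nuclear genes and which also works in the citric acid cycle, had 1 of 4 members lower. That share is near the 30.1% of all genes tested. Sdhd, a membrane anchor (chr9:50596357-50603812, minus strand), held 401, 373, 464, 247 and 208 CPM in the crypt and 75.2, 100.1, 151, 132 and 65.4 at the tip. The tip values of Sdhd all lay below its crypt values, and it fell by 1.28 on the log2 scale (SE 0.29, adjusted p = 9.02e-04). Sdhb, the iron-sulfur subunit, held 455 to 645 CPM in the crypt and 275 to 343 at the tip, also with no overlap, but its log2 change of −0.47 did not pass (adjusted p = 0.0999). Sdha, the flavoprotein, had a log2 change of −0.48 (adjusted p = 0.1125) and Sdhc, the other anchor, of −0.76 (adjusted p = 0.0946). With a block for the mouse all 3 passed, at adjusted p = 0.0467 for Sdhb, 0.0431 for Sdha and 0.00272 for Sdhc.

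In complex III, 5 of 8 subunits were lower, with a median of −1.0. Uqcrh, the hinge protein and its most abundant gene, held 832, 733, 929, 653 and 489 CPM in the crypt and 165, 178, 329.6, 452 and 39.2 at the tip. These groups did not overlap, and Uqcrh fell by 1.30 on the log2 scale (adjusted p = 0.00540). The small subunits Uqcr11 and Uqcr10 fell by 1.52 (adjusted p = 1.95e-04) and 1.42 (adjusted p = 2.71e-04).

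Complex V had 10 of 15 members lower and a median of −0.902. Its subunit c, of which a ring turns in the membrane, is encoded by Atp5g1, Atp5g2 and Atp5g3, whose promoters are shown above. Atp5g1 (chr11:96068852-96075670, minus strand) held 682, 814, 720.2, 593 and 396 CPM in the crypt of mice 1 to 5 and 408, 532, 370.1, 459 and 222 at mid-villus. At the tip it held 75.2, 75.1, 97.4, 245 and 105 CPM. Atp5g1 was thus lower at each step in every mouse, and its tip values lay below all crypt values. It fell by 2.13 on the log2 scale between crypt and tip (SE 0.31, adjusted p = 1.16e-05), and by 1.62 between mid-villus and tip (adjusted p = 0.00186). Atp5g3 (chr2:73908447-73911326, minus strand), the most abundant of the 3, averaged 1372 CPM in the crypt, 1391 at mid-villus and 442 at the tip. It fell by 1.28 between crypt and tip (SE 0.28, adjusted p = 6.12e-04). Atp5g2 (chr15:102662864-102672352, minus strand) was low throughout, with 31.4 ± 10.9 CPM in the crypt and 6.47 ± 6.60 at the tip (SD, n = 5), the latter from 7 UMIs in all. It fell by 2.28 (SE 0.66, adjusted p = 0.00676) between crypt and tip and was the 1 subunit gene lower at mid-villus, by 1.09 (adjusted p = 0.0483). It passed the filter on low counts only with its crypt sums, the highest of the 3 zones, as did Ndufaf3 and Ndufaf4. With no filter its log2 change was −2.25 at the tip (adjusted p = 0.00631) and −0.98 at mid-villus, which did not pass (adjusted p = 0.111). The difference between the 3 genes was not tested. Atp5b, the catalytic beta subunit and the most abundant gene of the complex, went from 1485 ± 313 to 882 ± 312 CPM and did not pass (log2 change −0.39, adjusted p = 0.258), and Atp5l fell by 1.39 (adjusted p = 0.00261) but shares sequence with pseudogenes that are also in the table.

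**Figure D2:**
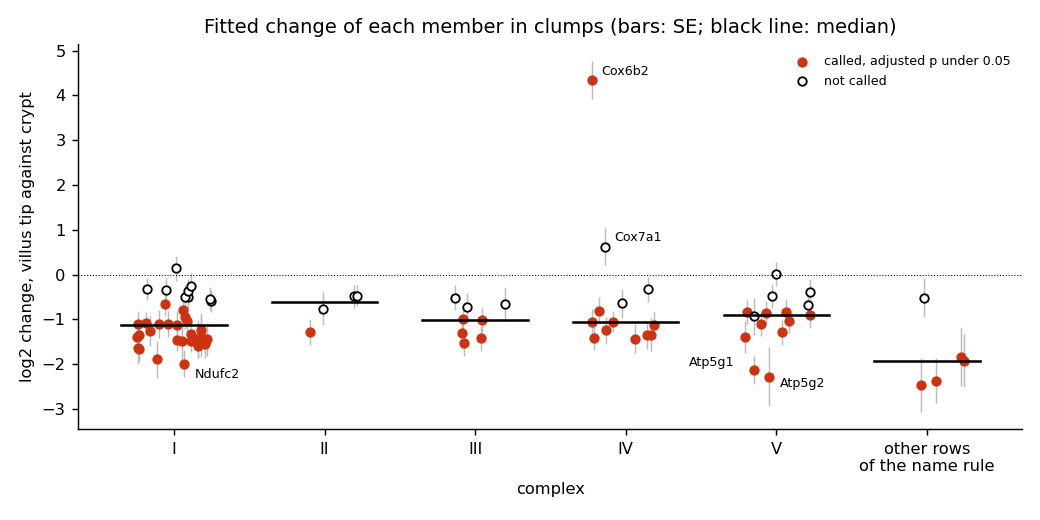
Fitted log2 change between villus tip and crypt clumps (y axis) of each of the 80 members tested, by complex (x axis). Filled points passed at an adjusted p under 0.05, open points did not, gray bars are the SE and black lines the median of each complex. Cox6b2 at 4.33 stands apart from all others, and the medians of the 5 complexes lie between −0.62 and −1.12.

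Complex IV, cytochrome c oxidase, had 9 of 13 tested members lower and the 1 member that rose. Its subunits 6A, 6B and 7A each have a widespread form and one known from muscle or testis. Cox6b2 (chr7:4751792-4753094, minus strand), known as the testis form of subunit 6B, held 1.61, 3.91, 3.91, 3.66 and 0 CPM in the crypt of mice 1 to 5 and 1.80, 2.17, 4.92, 1.70 and 0 at mid-villus. At the tip it held 37.6, 55.1, 61.4, 18.8 and 39.2 CPM. These tip levels rest on 8, 22, 46, 2 and 3 UMIs. The tip values of Cox6b2 lay above all others in every mouse, and it rose by 4.33 on the log2 scale against the crypt (SE 0.42, adjusted p = 1.83e-07) and by 4.23 against mid-villus (adjusted p = 1.05e-05). Only its tip sums reached the 13.35 CPM that the filter on low counts asked of 5 sums, so that a gene like it could be tested only if it was high at the tip, and without mouse 3 it was not tested. With no filter its log2 changes were 4.24 (adjusted p = 3.34e-08) and 4.10 (adjusted p = 4.99e-06). Cox6b1 (chr7:30616861-30626151, minus strand), the widespread form, held 924, 868, 921, 697 and 434 CPM in the crypt and 404, 358, 551, 480.3 and 91.6 at the tip. In each mouse Cox6b1 was lower at the tip, with a log2 change of −0.64 that did not pass (adjusted p = 0.0926) but did with a block for the mouse (adjusted p = 0.00868) or with total UMIs (adjusted p = 0.0315). Cox6b1 remained the more abundant form at the tip, with 377 ± 176 CPM beside 42.4 ± 16.6 for Cox6b2 (SD, n = 5).

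Cox7a1 (chr7:30184144-30186078, plus strand), known from heart and skeletal muscle, was highest in the middle of the axis. It held 228, 269, 219.9, 75.9 and 86.8 CPM in the crypt, 598, 715, 549, 371 and 202 at mid-villus, and 159.9, 346, 262, 84.8 and 105 at the tip. In each mouse the mid-villus value was the highest of the 3. Cox7a1 rose by 1.66 on the log2 scale between crypt and mid-villus (SE 0.41, adjusted p = 0.00267), the 1 member to do so. Its change between mid-villus and tip was −1.03 (adjusted p = 0.0937), which passed with a block for the mouse (adjusted p = 2.27e-04), and between crypt and tip 0.62 (adjusted p = 0.206, with the block 0.0296). Cox7a2 (chr9:79755361-79759878, minus strand), the widespread form, averaged 726 CPM in the crypt, 719.5 at mid-villus and 264 at the tip and fell by 1.06 between crypt and tip (adjusted p = 0.00407). Its relative Cox7a2l, which takes part in supercomplexes of complexes III and IV, fell by 1.43 (adjusted p = 0.00104).

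Of the other named subunits of complex IV, Ndufa4, first assigned to complex I, fell by 1.42 (adjusted p = 1.82e-04), Cox7b by 1.34 (adjusted p = 0.00120) and Cox8a by 1.05 (adjusted p = 0.00105). Cox6c fell by 0.80 (adjusted p = 0.0345), a call lost without mouse 1 (adjusted p = 0.128) or mouse 5 (adjusted p = 0.106). Cox6a1, the widespread form of subunit 6A, went from 983 ± 98.0 to 622 ± 188 CPM, with a log2 change of −0.33 that did not pass. The forms Cox6a2, with 6 UMIs in the crypt, 6 at mid-villus and 0 at the tip, and Cox7b2, with 1, 1 and 0, were too low to be tested.

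**Figure D3:**
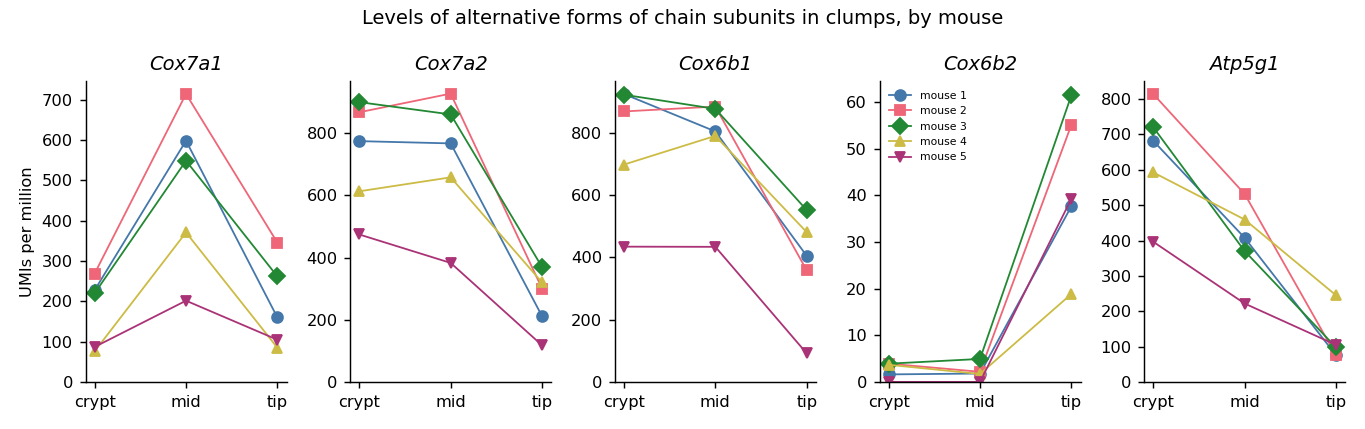
Levels in CPM (y axes from 0 with a scale of their own per panel) of Cox7a1, Cox7a2, Cox6b1, Cox6b2 and Atp5g1 in crypt, mid-villus and villus tip clumps, 1 line per mouse. Cox7a1 is highest at mid-villus in all 5 mice, Cox6b2 reaches 18.8 to 61.4 at the tip from at most 4.92 elsewhere, and Atp5g1 is lower at each step.

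Between crypt and mid-villus few members were called. The ratio of their share at mid-villus to that in the crypt was 0.923 ± 0.125 (SD, n = 5), below 1 in 4 of 5 mice, and 0.848 ± 0.0860 for complex I, below 1 in all 5. By edgeR's test 4 of 80 members were lower and 1 higher, against 22.6% and 20.4% of all genes tested, with a median log2 change of 0.0064 for the members and 0.0625 for all genes, and 39 members below 0. The lower ones were Atp5g2, which did not pass without a filter, and the assembly factors Ndufaf2 (−1.18), Ndufaf4 (−1.45) and Ndufaf5 (−1.40), so 3 of the 4 were not subunits. A block for the mouse called 11 members (9 lower, 2 higher). DESeq2's size factors in the same test called 16 (15 lower, 1 higher), with 75 of 80 below 0 and medians of −0.317 for the members and −0.27 for all genes. Of all 6940 genes that setting called 2119 lower and 881 higher. DESeq2 itself called 25 members (24 lower, 1 higher) and 3097 of all genes in either direction. Leaving out mouse 1 or mouse 3 left 3 members called. Between mid-villus and tip, 47 of 80 were lower and 1 higher, against 8.98% and 6.74% of all genes, with medians of −0.993 and −0.167. That count dropped to 8 without mouse 1, 13 without mouse 2 and 15 without mouse 3, and was 27 without a filter on low counts and 14 with pairs only.

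A finer axis ordered the clumps by eta, the landmark share of the tip against that of tip and crypt together. The clumps of all mice together were cut into 5 equal groups numbered from crypt (1) to tip (5). Within a mouse the groups were unequal. Mouse 4 had 826 clumps in group 1 and 16 in group 5 (47657 UMIs), and mouse 2 had 61 and 461. In groups 1 to 5 the members' share was 2.63% ± 0.261, 3.25% ± 0.680, 3.43% ± 0.787, 2.83% ± 0.706 and 1.70% ± 0.456 (SD, n = 5). The share was higher in group 3 than in group 1 in 4 of 5 mice (ratio 1.30 ± 0.274) and lower in group 5 than in group 3 in all 5 (ratio 0.497 ± 0.0930). In mice 2 and 3 the maximum was in group 3, in mice 1 and 4 in group 2, and in mouse 5 in group 1. Complex I had a mean share of 0.781% in both group 2 and group 3, and complexes II to V had their highest mean share in group 3.

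**Figure D4:**
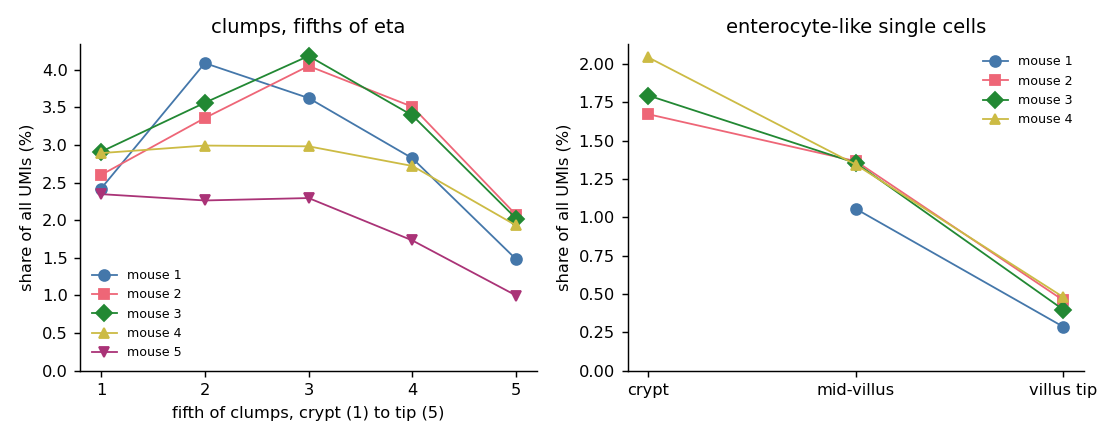
Members' share of all UMIs (percent) along the axis, 1 line per mouse. Left, clumps in 5 groups by eta from crypt (1) to tip (5), equal over all mice together but not within a mouse. The mean share is 2.63%, 3.43% and 1.70% in groups 1, 3 and 5. Right, enterocyte-like single cells by zone, where the mean share falls from 1.84% in the crypt to 0.405% at the tip.

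Single cells of the enterocyte-like cluster, from other libraries, were placed on the same axis without neighbouring cells. Those with at least 20 landmark UMIs were zoned by the same rule. The rule gives every such cell a zone, so crypt here means the best match to the landmarks and not a measured position. The members took 1.67%, 1.79% and 2.04% of UMIs in the crypt of mice 2, 3 and 4, and mouse 1 gave no crypt sum. At mid-villus they took 1.06% to 1.37% in the 4 mice and at the tip 0.286%, 0.459%, 0.398% and 0.480%. The zones did not overlap. The ratio of mid-villus to crypt was 0.743 ± 0.0804, below 1 in 3 of 3 mice, and the tip to crypt ratio was 0.244 ± 0.0274 (SD, n = 3). By complex it was 0.255 for I, 0.272 for II, 0.214 for III, 0.215 for IV and 0.267 for V. Of 72 members tested, 64 were lower and 0 higher at the tip by edgeR, against 30.1% and 30.4% of all genes. DESeq2 called 65 lower and 0 higher, and an unadjusted p under 0.05 also gave 65 and 0. Of all 4386 genes, DESeq2 called 2398 in either direction, and 2804 had an unadjusted p under 0.05. The medians were −1.43 for the members and 0.119 for all genes, and with total UMIs 72 members were lower with medians of −2.35 and −0.812. Of these 72, 49 were lower in clumps, and 48 were lower in both, which is 98% of the calls in clumps and 75% of those in cells. With 64 of the 72 lower in cells, most of the 49 had to be shared by count alone. The same overlap over all genes is not given here.

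The alternative forms were also read in these cells. Cox6b2 had 0 UMIs in the crypt sums of 3 mice, 1 to 2 UMIs per mouse at mid-villus and 15, 10, 3 and 27 UMIs at the tip. Over all tip cells it stood at 14.1 CPM, at least 4.28-fold higher than the 3.3 CPM that 3 UMIs over all crypt cells would give, a floor that covers counting error only. Cox7a1 averaged 129 CPM in the crypt, 149 at mid-villus and 55.1 at the tip, with overlap between crypt and mid-villus, and its log2 change between crypt and tip was −0.29 with TMM (adjusted p = 0.365) and −1.25 with total UMIs (adjusted p = 0.00214). Atp5g1 fell by 2.79 (adjusted p = 1.19e-06) and Ndufc2 by 3.61 (adjusted p = 2.95e-07). Sdhb, at 256 CPM in the crypt and 101.5 at the tip, did not pass with TMM (log2 change −0.40, adjusted p = 0.177), and Atp5b fell by 0.62 (adjusted p = 0.0187).

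The partner subunits encoded by mitochondrial DNA were read in the same sums. Of 13 such genes 11 were measured, and mt-Co3 and mt-Nd4 were not analysed here. Their share of UMIs in clumps was 3.21% ± 2.04 in the crypt, 4.02% ± 1.74 at mid-villus and 2.91% ± 1.09 at the tip (SD, n = 5), with tip to crypt ratios from 0.534 to 1.64 that were below 1 in 2 mice and above 1 in 3. None of the 11 passed in either direction between tip and crypt, and their median log2 change was 0.183 with TMM and −0.0877 with total UMIs. The mitochondrial ribosomal RNAs mt-Rnr1 and mt-Rnr2 went from 4.74% ± 4.11 to 8.26% ± 5.09, with a ratio above 1 in 5 of 5 mice (2.03 ± 0.543). In enterocyte-like cells 7 of the 11 subunit genes were called higher at the tip with TMM (median 0.743) and 0 with total UMIs (median −0.204), so their direction depended on the scaling.

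Other genes of mitochondrial metabolism were taken from lists by function, to be read against the 30.1% lower and 24.6% higher of all genes. Of 76 tested genes for proteins of the mitochondrial ribosome, which translates the partner subunits, 58 were lower and 0 higher at the tip of clumps, with a median of −1.59. Mrps2 (−3.89) and Mrps5 (−3.72) had the largest falls. In the citric acid cycle, 11 of 19 were lower, led by Idh2 (−4.50) and Dlat (−2.77), and 3 were higher, led by Pcx (3.26), which encodes pyruvate carboxylase. Assembly factors outside the name rule had 15 of 28 lower and 1 higher. Sdhaf1, which serves complex II, was at 0 UMIs in all tip sums and at 22.3 CPM in the crypt (adjusted p = 2.32e-04). It passed the filter on low counts without any tip sum, so that a gene like it could be tested only if it was high outside the tip. Over all tip clumps 3 UMIs would be 1.94 CPM, a floor that covers counting error only. Uqcc1 of complex III fell by 2.75, and Sco2 rose by 1.25 with a higher share in 4 of 5 mice.

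Electron carriers and ubiquinone synthesis had 7 of 15 lower, led by Coq2 (−3.80) and Pdss1 (−2.80), and 1 higher, Gpd2 (2.32), the mitochondrial glycerol phosphate dehydrogenase. Beta-oxidation had 7 of 15 lower, led by Cpt1a (−1.94) and Acaa2 (−1.90), and 1 higher, the carnitine carrier Slc25a20 (0.84). Of 10 genes for ATP export and outer membrane porins, Vdac1 (−1.63) and Vdac3 (−1.34) were among 3 lower and Vdac2 (0.83, a higher share in 3 of 5 mice) among 2 higher, shares near those of all genes. Glycolysis, which makes ATP outside the mitochondrion, had 1 of 12 lower, Aldoa (−1.23), and 1 higher, Hk2 (2.08, a higher share in 3 of 5 mice), with a median of 0.233. Of 6 tested regulators, Tfam (−1.96), which maintains mitochondrial DNA, was lower and Hnf4a (0.76), a factor of enterocyte genes, higher. The 3 chain subunits that the name rule misses were all lower, Cyc1 by 1.45, 2010107E04Rik by 0.88 and Usmg5 by 0.86 on the log2 scale. In enterocyte-like cells, against 30.1% lower and 30.4% higher of all genes, the same lists had 35 of 44 mitochondrial ribosomal proteins lower and 0 higher, 12 of 17 genes of the citric acid cycle lower and 2 higher, 8 of 14 of beta-oxidation and 5 of 10 of ATP export and porins lower and 0 higher. Of the other lists, 3 of 9 assembly factors and 3 of 9 electron carriers were lower with 1 higher in each, glycolysis had 1 of 10 lower and 2 higher (6 and 0 with total UMIs), regulators 1 of 5 each way (2 lower and 0 higher with total UMIs), and all 3 subunits outside the name rule were lower.

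The members' shares were compared between cell types. Clusters of 5199 cells, made without the members, were named from marker genes: 2459 enterocyte-like, 1606 immune-like, 248 enteroendocrine-like, 208 goblet-like and 186 tuft-like. A cluster of 106 cells led by histone genes and another of 386 stayed unnamed. In the histone-led cluster 18 immune markers summed to a median of 14363 CPM, 18 enterocyte markers to 12822 and 16 stem and dividing markers to 1654. The share was 0.359%, 0.975%, 1.20% and 0.999% in enterocyte-like cells of mice 1 to 4, where 564 of 678, 197 of 533, 124 of 576 and 284 of 672 cells were placed at the tip. It was 0.884% ± 0.364 in enterocyte-like (SD, n = 4), 0.675% ± 0.278 in goblet-like (n = 4), 0.838% ± 0.204 in enteroendocrine-like (n = 4), 1.21% ± 0.323 in tuft-like (n = 3), 0.861% ± 0.00834 in immune-like (n = 3) and 0.758% ± 0.288 in the histone-led cluster (n = 4). Ordered by level these were tuft-like, enterocyte-like, immune-like, enteroendocrine-like, histone-led and goblet-like, and the ranges of all neighbours in this order overlapped, while those of tuft-like (0.915% to 1.55%) and immune-like cells (0.852% to 0.868%) did not. Within a mouse, the ratio to enterocyte-like cells was above 1 in 3 of 3 mice in tuft-like cells (1.18 to 2.55), below 1 in 3 of 3 in immune-like (0.709 to 0.890) and in 4 of 4 in the histone-led cluster (0.664 to 0.978), and on both sides of 1 in goblet-like (0.489 to 1.29) and enteroendocrine-like cells (0.656 to 1.875). These ratios were not tested. They and the order above pool the zones of enterocyte-like cells, whose crypt values (1.67% to 2.04%) all lay above the tuft-like ones and whose tip values (0.286% to 0.480%) all lay below those of tuft-like and immune-like cells. Depth differed, with a median of 2858 UMIs per enterocyte-like and 845 per immune-like cell, and so did the share of mitochondrially encoded UMIs, which was 31.4% in enterocyte-like and 10.9% to 26.2% in the other types.

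**Figure D5:**
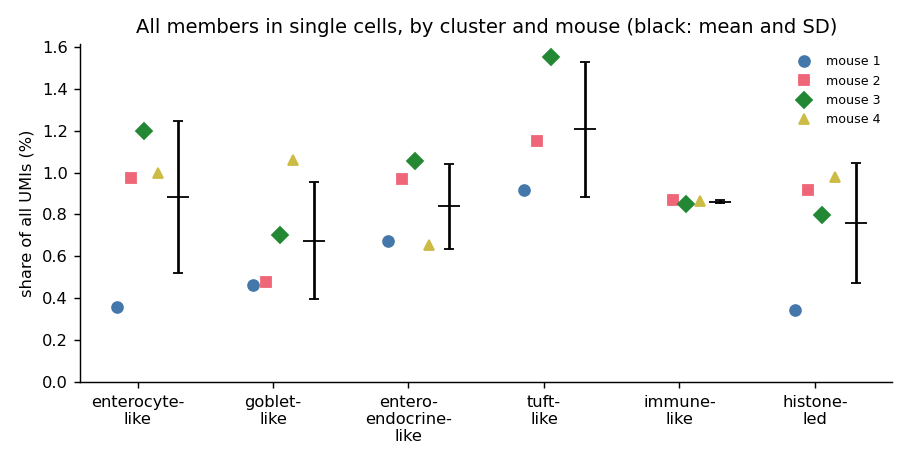
Members' share of all UMIs (percent, y axis from 0) in 6 clusters of single cells (x axis), 1 point per mouse, with the mean and SD in black. Values of neighbouring types in the order of means overlap, mouse 1 is lowest among enterocyte-like cells at 0.359%, and the tuft-like mean of 1.21% is the highest with the zones of enterocyte-like cells pooled.

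Against enterocyte-like cells, 65 members could be tested in each type by edgeR with TMM scaling. In goblet-like cells 18 were lower and 0 higher (13% and 8.67% of all genes), in enteroendocrine-like cells 18 and 0 (17.2% and 14%), in tuft-like cells 10 and 0 (13.4% and 11.8%) and in immune-like cells 44 and 0 (30.6% and 31.1%). An unadjusted p under 0.05 gave 32, 28, 13 and 49 lower and 0, 0, 1 and 0 higher in the same order, and DESeq2 22, 25, 10 and 49 lower and 0, 0, 1 and 0 higher. Of all 2998 genes, 913, 1236, 995 and 1971 had an unadjusted p under 0.05 in either direction. DESeq2 called 638, 970, 749 and 1830 of them. With total UMIs in place of TMM the edgeR counts became 3 lower and 0 higher, 0 and 0, 1 and 4, and 2 and 2. All genes then split into 223 lower and 388 higher, 218 and 942, 218 and 708, and 503 and 1617. The median of all genes moved from −5.03e-04 to 0.536, from 0.193 to 1.23, from −0.013 to 0.891 and from 0.057 to 1.39. Relative to that median the members stood at −1.03, −1.02, −0.523 and −1.32 with TMM and at −1.02, −1.01, −0.47 and −1.38 with total UMIs, 2 values that the scaling leaves nearly alike by construction. The members' own median went from −1.04 to −0.483 in goblet-like, from −0.823 to 0.218 in enteroendocrine-like, from −0.536 to 0.421 in tuft-like and from −1.26 to 0.00282 in immune-like cells, so the calls of all 4 types and the direction in the last 3 depended on the scaling. Members that were not called are not shown to be equal between the types. A block for the mouse called 32 members in goblet-like and 28 in enteroendocrine-like cells. Without the plates whose gate names CD24, CD45 or CD54, 5 members were called in goblet-like, 0 in tuft-like and 1 in immune-like cells. Plates with a gate named for Epcam alone were kept in that setting. Leaving out 1 mouse gave 2 (without mouse 2) to 39 (without mouse 1) in goblet-like cells, with 7 without mouse 3 and 10 without mouse 4. It gave 8 (without mouse 3), 9 (without mouse 2 or 4) and 30 (without mouse 1) in enteroendocrine-like cells. In tuft-like cells it gave 0 without mouse 2 and 1 without mouse 3, and in immune-like cells 13 without mouse 3 and 17 without mouse 2 or mouse 4.

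Cox7a1 was among the 3 largest falls in every type, but passed the filter on low counts (76.97 CPM in 3 sums) only with the enterocyte-like sums, where its mean is highest. It held 51.6, 91.8, 138 and 102 CPM in enterocyte-like cells of mice 1 to 4, and 32.0, 12.0, 34.9 and 0 in goblet-like, 0, 51.4, 45.7 and 0 in enteroendocrine-like, 0, 17.6 and 0 in tuft-like (mice 1 to 3) and 10.4, 11.7 and 12.9 in immune-like cells (mice 2 to 4). In the histone-led cluster it held 0, 41.6, 32.4 and 88.4 CPM from at most 4 UMIs per mouse. The values outside enterocyte-like cells rest on at most 23 UMIs per mouse and did not reach the enterocyte-like value of the same mouse. Its log2 change was −2.49 in goblet-like (adjusted p = 8.77e-04, with total UMIs 0.0149), −2.20 in enteroendocrine-like (adjusted p = 0.00297, with total UMIs 0.103), −3.68 in tuft-like (adjusted p = 1.42e-04, with total UMIs 0.00553) and −4.34 in immune-like cells (adjusted p = 1.10e-07, with total UMIs 9.27e-05). With no filter it was −2.76, −2.57, −4.00 and −4.00 in the same order, with adjusted p between 6.11e-08 and 9.28e-04. The core proteins of complex III were also among them, with Uqcrc2 at −2.14 in goblet-like and −1.86 in tuft-like cells and Uqcrc1 at −2.30 in enteroendocrine-like and −2.40 in immune-like cells. Uqcrc1 also passed the filter only with the enterocyte-like sums, and with no filter it was at −2.67 (adjusted p = 0.00113) and −2.05 (adjusted p = 0.00337). The others were Ndufab1 (−2.08), the acyl carrier protein of complex I, in goblet-like, Atp5d (−2.26) in enteroendocrine-like, Sdhd (−1.88) in tuft-like and Sdhb (−2.58) in immune-like cells. With total UMIs only Uqcrc2 in goblet-like cells and Sdhb in immune-like cells among these other genes kept their calls.

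Complex II had 2 of 4 members lower in goblet-like, 2 in enteroendocrine-like, 3 in tuft-like and 4 in immune-like cells with TMM, and with total UMIs only Sdhb in immune-like cells (adjusted p = 0.0312). Of all genes, 13%, 17.2%, 13.4% and 30.6% were lower with TMM in the same order of types. All 11 mitochondrially encoded subunits were lower than in enterocyte-like cells in each of the 4 types with TMM, with medians of −2.74, −2.64, −2.0 and −3.14, and 9, 7, 1 and 9 of them with total UMIs. Cox6a2 (chr7:128205435-128206387, minus strand), known as the heart and muscle form of subunit 6A, had 17, 6 and 3 UMIs in immune-like cells of mice 2, 3 and 4 and 0 UMIs in the other 5 clusters. Over all immune-like cells it stood at 16.3 CPM, at least 41.3-fold higher than the 0.395 CPM that 3 UMIs over all enterocyte-like cells would give. In the smaller clusters 3 UMIs over the cluster would be 5.92 to 12.8 CPM, so 0 UMIs limits Cox6a2 less there. It overlaps Itgad on the opposite strand, which counting by strand keeps apart. Ndufa4l2, present in the cell table only, had 0 UMIs in all 6 clusters.

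Clump size was compared within the crypt. Larger clumps held 2.87% ± 0.428 member UMIs (SD, n = 3 mice) and pairs 2.89% ± 1.00 (n = 5). Of 81 members tested, 0 were lower and 0 higher by edgeR's test, against 0% and 0% of 6848 genes in either direction. At an unadjusted p under 0.05 there were 160 genes and 0 members, and DESeq2 called 0 genes.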

How the data were processed

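The authors deposited whole-number UMI counts per gene and well, 1 table of clumps and 1 of single cells, after demultiplexing with bcl2fastq 2.15.0.4 and alignment to GRCm38 per the submitters' processing notes, with STAR and zUMIs set to the strand of the libraries per the study's methods. The counts were not normalized, and not every well of every plate was among them. The 4 emptiest positions of the clump plates had 55 to 123.5 UMIs as medians, and subtracting these was an alternative. The 384 well barcodes mark only the position and each recurs on 41 to 45 of the 45 clump plates and 42 to 44 of the 44 cell plates, and no 2 mice of a group agreed within sampling noise (lowest chi-square per degree of freedom 1.44).

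The members and all gene lists were chosen with earlier results of these data known. Named members were the most abundant gene and the 3 largest calls of each complex in each direction, all alternative forms, complex II, and the 3 largest calls per cell type. Of 87 members, 86 were placed by GENCODE vM21.

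A clump needed more than 500 UMIs, 200 detected genes and no more than 30% of UMIs from mitochondrial genes, and the 2% lowest in landmark share were dropped. Each was given the zone whose landmarks it matched best. Of the 70 landmarks, 25 of the 30 for the crypt were ribosomal protein genes, and landmarks were kept out of the tests between zones. Cells needed 200 to 7000 UMIs, 150 to 1500 detected genes and no more than 40% mitochondrial UMIs, and were clustered with scanpy 1.11.5 (2000 variable genes, 25 components, 20 neighbours, resolution 0.1). No doublet caller was run. A mouse entered a sum with at least 5 cells.

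UMI counts were summed by mouse and zone or type, filtered with filterByExpr, scaled by TMM and tested with the quasi-likelihood test of edgeR 4.0.16 in R 4.3.3, at a Benjamini-Hochberg adjusted p under 0.05 over all genes tested. Standard errors were taken from the F statistic. Shares carry no test, since no p was given to a sum over members. The test was checked on simulated counts, where it missed most changes of 2-fold (1 on the log2 scale), between zones and between cell types, so that a gene not called is not shown to be unchanged. Within a table, samples with 1 mouse number were taken as 1 animal, though mouse 2 of the single cells has plates of 2 ages and may hold more than 1 animal. The residuals of the sums of 1 mouse correlated at 0.171 to 0.574 between zones, 0.122 to 0.317 between clump sizes, 0.0883 to 0.452 between zones of cells and −0.149 to 0.593 between cell types. A block for the mouse was therefore an alternative, as were DESeq2 1.42.0 and, added after seeing the data, total UMIs in place of TMM.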

Additional observations from a re-analysis of the deposited data

Results flagged for a closer look

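In the groups of 4 or 5 mice, a few shares lay far from the others of their group, a test that chance alone passes in about 1 in 20 groups. At mid-villus of the clumps, mouse 5 was far below the other 4 mice in the share of all members (1.704%), of complex I (0.3729%), of complex III (0.1486%) and of complex V (0.5865%). In mid-villus enterocyte-like cells, mouse 1 was far below the other 3 mice for all members (1.055%) and for complex III (0.1155%). In the histone-led cluster, mouse 1 was far below for complex III (0.03559%). Among goblet-like cells, mouse 4 was far above the other 3 for the assembly factors and related genes (0.007872%), which is 2 of 25405 UMIs from 15 cells.

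Pseudogene entries left out of the members also held UMIs in the clump table: 181 for Atp5k-ps2, 62 for Atp5l-ps1, 3197 for Atp5l-ps2 and 6845 for Atp5l2-ps, beside 7683 for Atp5l itself. Atp5l2-ps averaged 246 CPM in the crypt, 216 at mid-villus and 82.0 at the tip, and Atp5l-ps2 141, 119 and 53.3, so the level of Atp5l itself is uncertain.

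The clumps of mouse 6, labelled above 2n and used in no comparison, held 2.05% member UMIs in the crypt, 2.139% at mid-villus and 0.551% at the tip. The tip value was again the lowest of the 3 zones.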

How the results depend on the processing

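The number of members called between tip and crypt stayed within 1.5 times its value under each alternative tried, in clumps (47 to 65 with 1 mouse left out) and in enterocyte-like cells (56 to 64). Between clump sizes it stayed at 0. The ratio of the members' share at the tip to that in the crypt was 0.374 to 0.440 with 1 mouse left out. Between mid-villus and crypt, 5 members were called, and 25 with DESeq2, 16 with DESeq2's size factors, 1 with pairs only, 9 with zones by mean landmark level, 8 without clumps of secretory cells and 3 to 7 with 1 mouse left out. Between tip and mid-villus, 48 became 27 without a filter, 14 with pairs only and 8 to 49 with 1 mouse left out. With the mouse as a replicate block, 11 members were called between mid-villus and crypt, 32 in goblet-like and 28 in enteroendocrine-like cells, and no other count of members moved by over 1.5 times. The causes were not tested.

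Calls by cell type depended most on the settings. Gated plates are here those whose gate names CD24, CD45 or CD54, and plates named for Epcam alone were kept. In goblet-like cells 18 became 5 without gated plates, 3 with total UMIs, 43 at an adjusted p under 0.25 and 2 to 39 with 1 mouse left out. In enteroendocrine-like cells 18 became 28 both without mitochondrial, ribosomal and landmark genes and with types by marker sums, 0 with total UMIs, 33 at 0.25 and 8 to 30 with 1 mouse left out. In tuft-like cells 10 became 4 without a filter, 0 without gated plates, 5 with total UMIs, 19 at 0.25 and 0 to 11 with 1 mouse left out. In immune-like cells 44 became 15 without a filter, 27 without mitochondrial, ribosomal and landmark genes, 1 without gated plates, 4 with total UMIs and 13 to 54 with 1 mouse left out. Without mitochondrially encoded UMIs in the total, the share was 1.28% in enterocyte-like and 0.967% in immune-like cells, and with ribosomal and landmark genes also left out 1.36%, 1.12% and, in tuft-like cells, 1.58%. The immune-like share was 0.819% with types by marker sums and 0.775% without gated plates. Cox6b2 could not be tested with pairs only, with zones by mean landmark level or without mouse 3. With total UMIs the calls in tuft-like cells turned from 10 lower and 0 higher to 1 lower and 4 higher. No named member reversed between tip and crypt of clumps under the alternatives tried. Without the plates of 4 months 27, 27, 11 and 48 members were called in goblet-like, enteroendocrine-like, tuft-like and immune-like cells. The tip levels of Cox6b2 rest on 2 to 46 UMIs per mouse and those of Atp5g2 on 7 in all, which limits their precision.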
